A study of Mus musculus with 16 samples.

Results

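Open chromatin at 10 genes that write, copy, oxidise or excise DNA methylation was followed in sorted mouse hematopoietic stem and progenitor cells (HSPCs). The genes were Tet1, Tet2, Tet3, Dnmt1, Dnmt3a, Dnmt3b, Idh1, Idh2, Uhrf1 and Tdg. They were chosen by name, as 10 of the 21938 protein-coding genes annotated in mm10, and not by a rule on their values. Earlier results of these data were known at that choice. Peaks of 16 ATAC-seq peak lists were merged into 296215 regions wherever they shared at least 1 bp, and the 242 regions that lay in 1 of these genes or within 10 kb of either end were taken as its locus.

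The series held 4 libraries of each of 4 genotypes, and each library came from 50000 cells pooled from 2 mice. All mice were C57BL/6, carried Ep300 fl/fl and had been given poly(I:C), which induces interferon. WT mice had no Cre, P300KO mice carried Mx1-Cre, TET2KO mice were Tet2-/-, and P300KO_TET2KO mice carried both Mx1-Cre and Tet2-/-. Mx1-Cre is driven by an interferon-inducible promoter that also works outside blood cells, whereas Tet2 was missing from the germ line, so the 2 losses differ in when and where they arose. The labels call the mice age-matched, and by the study's methods they were young adults when poly(I:C) was given. The question taken here was whether the other genes of the methylation cycle change their open chromatin when Tet2 is lost, and whether they do so in cells with and without p300.

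DNA methyltransferases place a methyl group on the cytosine of a CpG. Dnmt3a and Dnmt3b place new marks, while Dnmt1, guided by Uhrf1 to newly replicated DNA, copies marks to the daughter strand. Tet1, Tet2 and Tet3 oxidise methylcytosine with the help of 2-oxoglutarate, which Idh1 and Idh2 make, and Tdg excises oxidised bases so that repair can put back an unmodified cytosine. Tet2 and Dnmt3a are known in blood for mutations in clonal hematopoiesis and myeloid disease. ATAC-seq marks DNA that a transposase can reach, and it measures neither DNA methylation nor RNA.

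The DNA on which the Tet2 question was asked is shown first, because these promoters differ widely in the CpG dinucleotides that their own products act on. Each promoter runs from 250 bases before to 50 bases after a gene start of RefSeq (build GRCm38.p6, the mm10 assembly), read 5′ to 3′ on the strand of the gene. The last sequence is the intron region of Dnmt3b that was called when p300 was lost. Capitals mark CpG.
Tet1 promoter, chr10:62887275-62887574, minus strand: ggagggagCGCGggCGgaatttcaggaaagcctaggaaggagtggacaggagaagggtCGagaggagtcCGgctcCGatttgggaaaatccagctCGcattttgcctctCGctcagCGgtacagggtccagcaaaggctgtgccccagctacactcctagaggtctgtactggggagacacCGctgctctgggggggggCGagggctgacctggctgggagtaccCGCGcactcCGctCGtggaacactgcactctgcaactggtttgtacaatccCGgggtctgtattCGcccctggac
Tet2 promoter, chr3:133544341-133544640, minus strand: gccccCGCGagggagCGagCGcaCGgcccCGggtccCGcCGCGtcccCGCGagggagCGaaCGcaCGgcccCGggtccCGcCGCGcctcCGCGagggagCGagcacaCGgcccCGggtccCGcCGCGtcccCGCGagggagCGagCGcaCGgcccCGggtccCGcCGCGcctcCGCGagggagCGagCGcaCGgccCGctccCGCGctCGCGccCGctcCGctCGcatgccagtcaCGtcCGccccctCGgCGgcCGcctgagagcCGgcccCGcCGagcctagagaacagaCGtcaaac
Tet3 promoter, chr6:83441629-83441928, minus strand: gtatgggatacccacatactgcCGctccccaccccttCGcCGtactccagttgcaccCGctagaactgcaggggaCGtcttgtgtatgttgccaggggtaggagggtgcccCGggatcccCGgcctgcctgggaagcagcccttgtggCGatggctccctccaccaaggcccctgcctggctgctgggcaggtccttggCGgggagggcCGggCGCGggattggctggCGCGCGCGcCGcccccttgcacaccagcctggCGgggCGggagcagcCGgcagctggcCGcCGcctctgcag
Dnmt1 promoter, chr9:20952930-20953229, minus strand: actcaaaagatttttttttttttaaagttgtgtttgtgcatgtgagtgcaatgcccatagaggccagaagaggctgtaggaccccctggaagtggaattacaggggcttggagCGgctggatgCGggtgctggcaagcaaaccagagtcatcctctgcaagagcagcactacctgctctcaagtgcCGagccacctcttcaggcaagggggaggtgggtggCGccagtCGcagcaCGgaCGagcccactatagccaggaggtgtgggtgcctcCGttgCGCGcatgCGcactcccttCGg
Dnmt3a promoter, chr12:3806730-3807029, plus strand: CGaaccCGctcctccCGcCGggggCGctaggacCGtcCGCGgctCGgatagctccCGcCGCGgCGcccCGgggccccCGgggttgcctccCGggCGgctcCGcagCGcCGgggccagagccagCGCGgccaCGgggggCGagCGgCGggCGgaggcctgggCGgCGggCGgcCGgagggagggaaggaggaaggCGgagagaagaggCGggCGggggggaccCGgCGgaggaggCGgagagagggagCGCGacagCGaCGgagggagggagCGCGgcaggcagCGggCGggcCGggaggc
Dnmt3b promoter, chr2:153649199-153649498, plus strand: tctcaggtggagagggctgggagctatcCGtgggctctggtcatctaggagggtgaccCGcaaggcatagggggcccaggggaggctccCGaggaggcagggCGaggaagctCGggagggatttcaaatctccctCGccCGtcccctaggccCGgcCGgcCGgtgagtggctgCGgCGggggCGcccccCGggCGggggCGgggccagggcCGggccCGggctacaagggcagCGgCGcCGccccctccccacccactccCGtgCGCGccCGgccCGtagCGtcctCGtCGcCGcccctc
Dnmt3b intron region, chr2:153651199-153651458, plus strand: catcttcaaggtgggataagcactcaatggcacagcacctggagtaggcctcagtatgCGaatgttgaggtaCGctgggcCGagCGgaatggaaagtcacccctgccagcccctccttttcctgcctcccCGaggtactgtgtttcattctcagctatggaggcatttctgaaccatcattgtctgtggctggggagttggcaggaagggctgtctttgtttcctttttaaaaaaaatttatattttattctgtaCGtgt

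All 10 genes matched a promoter sequence. The Tet2 promoter held 57 CpG in 300 bases, at the 99.85th percentile of the 32851 promoter windows of the genome table, whose median was 7. Dnmt3a held 46 CpG, Dnmt3b 30, Tdg 26, Idh1 23, Tet3 22, Idh2 20 and Tet1 17, and Dnmt1 and Uhrf1 each held 12. The GC box GGGCGG, searched on both strands, was found in 8 of the 10 promoters and in 35.7% of all promoter windows. CCAAT, also on both strands, was found in 4 of 10, those of Tet3, Idh2, Uhrf1 and Tdg, and in 37.4% of all windows. TGACG, a core of the cAMP response element, was found in the Tet2 and Tdg promoters and in 20.8% of all windows. The Ets core CCGGAAG was found in 0 of 10 and in 8.86% of all windows. The E2F string TTGGCGC was likewise in 0 of 10, against 2.45%, and the Gata string AGATAA in 0 of 10, against 11.2%. The strings are letters in a fixed window and do not mark binding. The Dnmt3b intron region held 6 CpG in 260 bases and none of these strings.

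The lists differed in length between 2 deposit sets, and these lengths touch every value below. Replicates 1 and 2 of each genotype held 86039 to 110055 peaks, and replicates 3 and 4 held 130610 to 137335. The first set is the one whose labels also name a reproducible-peak file, and nothing states what else differed. Of the peaks of WT replicate 1, 45.0% had a −log10 q of at least 2, and of WT replicate 2, 63.2%, against 71.3% to 97.4% in the other libraries. The lists gave no read counts, so the depth behind a peak is unknown. All 8 HSPC marker genes examined had a promoter peak in all 16 libraries. Ms4a1, Cd3e, Ly6g, Klf1 and Col1a1, markers of B cells, T cells, mature myeloid cells, erythroid cells and stroma with endothelium, had none in any library, and these lists had a promoter peak in all libraries for 1 of 4, 1 of 3, 1 of 4, 2 of 3 and 2 of 3 of their genes. Both megakaryocyte markers had one in every library. Fewer cells of a type and weaker opening in each cell cannot be told apart in such samples.

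The 10 loci looked like the rest of the genome in how often their regions recurred. Of the 242 regions, 34 had a peak in all 16 libraries, or 14.0%, against 13.3% of all merged regions. A further 111, or 45.9%, were found in 1 library, against 45.6% of all regions. The median width was 257 bp in both. Tet1 and Tet3 held 43 regions each, Dnmt3a 41, Tet2 30, Dnmt1 26, Dnmt3b 24, Uhrf1 13, Idh2 10, Idh1 7 and Tdg 5. Of the 242 regions, 134 lay in introns, 52 in exons, 33 between genes and 23 within 500 bp of a coding transcript start. Regions at a locus can belong to a neighbour. Regions found in all 16 libraries within the windows covered the promoters of Eif3g near Dnmt1, Kdm4b near Uhrf1 and 1190007I07Rik near Tdg, and 1 region covered the starts of both Idh1 and Pikfyve. The window of Dnmt3b reached the start of Dnmt3c, where 3 promoter regions were found in 1 to 3 libraries.

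To set libraries side by side, each peak was given its rank percentile within its own list by −log10 p, so that 100 is the strongest peak of a library. The promoter region of each gene was the region at a coding transcript start with the highest mean percentile, and every one of the 10 was found in all 16 libraries. Averaged over libraries, the maintenance genes ranked highest, with Dnmt1 at 98.9 (chr9:20952066-20953252) and Uhrf1 at 98.7 (chr17:56302940-56304638). Next came Idh1 at 97.9 (chr1:65178076-65179644), Tdg at 97.5 (chr10:82629111-82630518) and Idh2 at 97.3 (chr7:80114044-80115777). Tet3 stood at 95.6 (chr6:83440889-83442240), Dnmt3a at 92.7 (chr12:3805982-3807130) and Tet2 at 91.6 (chr3:133543815-133545379). Dnmt3b, at 84.0 (chr2:153648874-153650484), and Tet1, at 75.02 (chr10:62885820-62887552), ranked lowest. The library ranges of Dnmt3b, 81.6 to 88.8, and Tet2, 89.0 to 93.7, did not overlap, while those of Tet1, 65.3 to 83.0, and Dnmt3b did, as did those of the 5 highest genes among themselves and those of Tet3, Dnmt3a and Tet2. The range of Dnmt3a, 87.0 to 96.0, also overlapped with that of Dnmt3b. The promoters of Dnmt1, Idh1, Tet3 and Tet1 lay 7229, 7640, 17520 and 22310 bp inside the outermost annotated start of the gene.

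**Figure D1:**
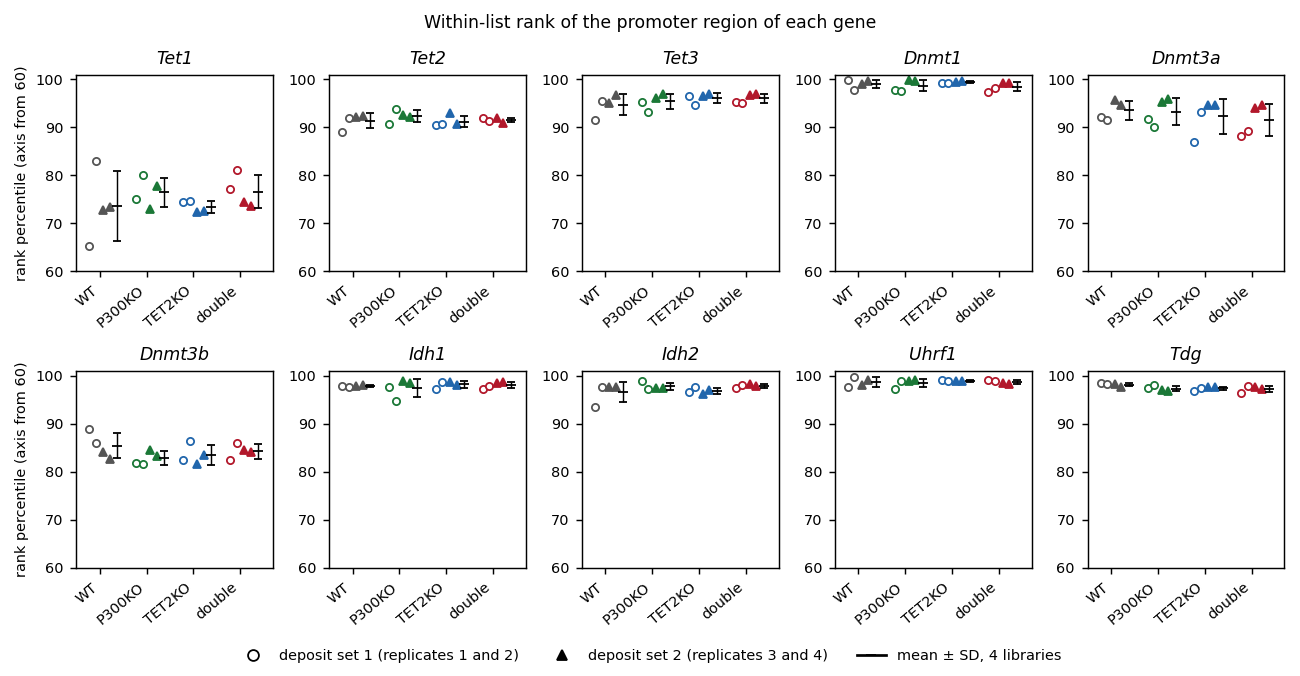
Rank percentile of the promoter region of each of the 10 genes in every library (vertical axis, cut at 60), by genotype, where "double" is P300KO_TET2KO; circles are replicates 1 and 2, triangles replicates 3 and 4, and bars the mean ± SD of 4 libraries. Dnmt1 and Uhrf1 sit near 99 in all genotypes, and Tet1 sits near 75.

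The Tet2 promoter region had a peak in every library of mice without Tet2. In WT libraries it ranked at 89.0, 91.9, 92.2 and 92.3, and in TET2KO libraries at 90.6, 90.7, 92.9 and 90.6. P300KO libraries stood at 90.7, 93.7, 92.7 and 92.1, and P300KO_TET2KO libraries at 92.0, 91.3, 91.9 and 90.9. A second Tet2 region found in every library, in an intron (chr3:133525298-133526996), ranked between 20.8 and 55.0. The peak lists therefore show no loss at Tet2 that could check the genotype labels, and which exons the Tet2 allele removes is not given in the sources used here.

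The sister enzymes did not show a change that passed the test when Tet2 was absent. At the Tet3 promoter WT libraries ranked at 91.5, 95.5, 95.1 and 96.7 and TET2KO libraries at 96.5, 94.6, 96.6 and 96.9. P300KO libraries ranked there at 95.4, 93.1, 96.1 and 97.0, and P300KO_TET2KO libraries at 95.3, 95.03, 96.8 and 97.0. The groups overlapped, and WT replicate 1 was the lowest of all. Over both p300 backgrounds the rank difference, Tet2 absent minus present, was 1.04 percentile points with a 95% interval of -0.05 to 2.13 (limma, adjusted p = 0.48). At the Tet1 promoter the difference was 0.01 points, with an interval of -4.88 to 4.89, the widest of the 10 promoters.

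Among the methyltransferases, the difference was 0.05 points at the Dnmt1 promoter (95% interval -0.56 to 0.67). It was -1.42 points at the Dnmt3a promoter (-2.89 to 0.05), and -0.25 points at the Dnmt3b promoter (-2.85 to 2.34). WT libraries ranked at the Dnmt3a promoter at 92.3, 91.5, 95.6 and 94.7, and TET2KO libraries at 87.0, 93.1, 94.7 and 94.6. There P300KO libraries ranked at 91.8, 90.1, 95.2 and 96.0, and P300KO_TET2KO libraries at 88.2, 89.3, 94.1 and 94.8. In every genotype the lowest library at Dnmt3a was in the first deposit set, and in the second set the libraries with and without Tet2 overlapped. Uhrf1 differed by 0.19 points, Idh1 by 0.51, Idh2 by 0.19 and Tdg by -0.40, and each of these 4 intervals covered 0.

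Beyond the promoters, all 34 regions found in every library were tested within 1 limma fit of 39310 regions, with the deposit set as a term. For TET2KO against WT, 0 of the 34 had an adjusted p under 0.05, as had 0% of all regions. At an unadjusted p under 0.05 there was 1 of 34, against 8.75% of all regions. For P300KO_TET2KO against P300KO, 0 of 34 passed, against 0.104% of all regions, and 1 was under 0.05 unadjusted, against 7.04%. Over both backgrounds 0 of 34 passed, against 0.247%, and 2 were under 0.05 unadjusted, against 10.7%. The median difference over the 34 was 0.19 points with 21 of them higher, beside a median of 0.11 over all regions tested. The direction of this median depends on how peaks were ranked. Ranked by fold enrichment it was -0.62 points, with 13 of 34 higher and a median of -0.16 over all regions, and there 9 of 34 were under 0.05 unadjusted, 7 of them lower, against 17.8%. At a −log10 q of at least 2 it was 1.78 points, with 24 of 26 higher and a median of 2.86 over all regions. At that cut WT replicates 1 and 2 kept 45.0% and 63.2% of their peaks, against 71.3% to 97.4% in the other libraries. The part of this in the median was not tested. The difference between the Tet2 effects on the 2 p300 backgrounds passed for 0 of 34 and for 0% of all regions, with 1 of 34 at an unadjusted p under 0.05, against 4.59%. These contrasts share libraries and are not independent.

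**Figure D2:**
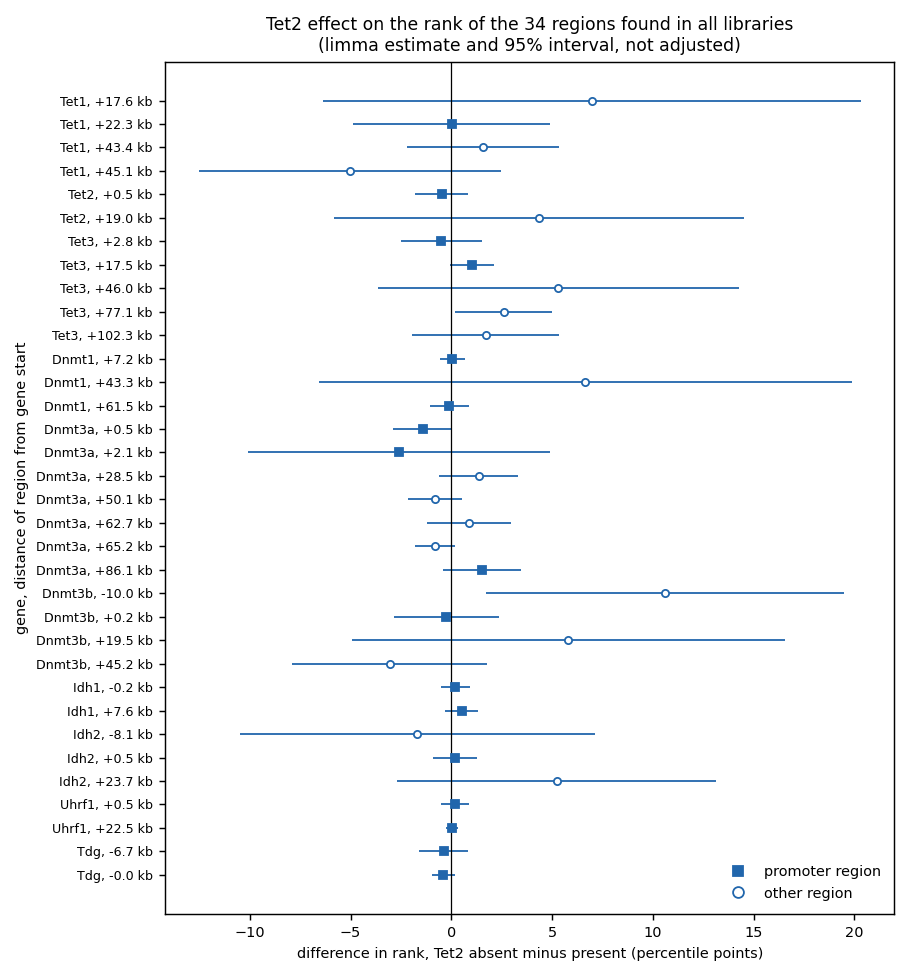
Difference in rank percentile, Tet2 absent minus present over both p300 backgrounds (horizontal axis, percentile points), for the 34 regions found in all libraries, each named by its gene and the distance of its middle from the gene start in kb; squares are promoter regions, circles other regions, and lines 95% intervals of the limma fit without adjustment. The strongest promoters have the narrowest intervals, and the region 9980 bp upstream of Dnmt3b and the Tet3 intron region at +77.1 kb are the 2 whose intervals leave out 0.

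The lowest p in the contrast over both backgrounds belonged to a region 9980 bp upstream of Dnmt3b (chr2:153638865-153640076), between genes and 6084 bp from the nearest start, that of Commd7. It ranked at 55.2, 72.9, 74.3 and 70.4 in WT and at 73.3, 74.3, 74.7 and 72.4 in TET2KO. In P300KO it ranked at 61.3, 28.5, 55.2 and 62.0, and in P300KO_TET2KO at 61.8, 71.6, 69.0 and 67.8. P300KO was the low group, and its 4 libraries overlapped with WT through WT replicate 1. The rank was 10.6 points higher without Tet2 (SE 4.23, limma, unadjusted p = 0.0219, adjusted p = 0.39), the mean of 15.8 points in P300KO_TET2KO against P300KO and 5.47 points in TET2KO against WT. Without P300KO replicate 2 the difference over both backgrounds was 6.93 points and that in P300KO_TET2KO against P300KO 8.39 points. The 5.47 points include WT replicate 1 at 55.2, while the other WT libraries ranked at 70.4 to 74.3 and TET2KO libraries at 72.4 to 74.7.

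Tet3 held the other region. It lay in a Tet3 intron (chr6:83381471-83382521), 77088 bp inside the gene start, and was 2.59 points higher without Tet2 (SE 1.14, limma, unadjusted p = 0.0351, adjusted p = 0.43). WT libraries ranked there at 81.7, 88.6, 92.6 and 93.3, and TET2KO libraries at 89.5, 89.6, 94.5 and 94.3. P300KO libraries ranked there at 91.0, 82.1, 94.0 and 95.2, and P300KO_TET2KO libraries at 89.7, 91.6, 95.2 and 94.9. The lowest values were those of WT replicate 1 and P300KO replicate 2, and the difference was 1.62 points without P300KO replicate 2 and 0.95 points within the second deposit set.

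In TET2KO against WT the lowest p was that of a Tet1 intron region (chr10:62863592-62864123), which was 11.8 points lower in TET2KO (SE 5.06, limma, unadjusted p = 0.0318, adjusted p = 0.56). It ranked at 83.8, 73.1, 80.3 and 80.9 in WT and at 44.7, 62.1, 82.8 and 81.5 in TET2KO. The low values were the first deposit set of TET2KO. Without TET2KO replicate 1 the difference was -5.94 points, and within the second set TET2KO was 1.53 points higher. In P300KO the region ranked at 63.0, 78.5, 80.2 and 85.1, and in P300KO_TET2KO at 68.1, 75.3, 87.1 and 83.2. A Dnmt1 intron region (chr9:20916100-20917092) was next, 18.6 points higher in TET2KO, and there WT replicate 1 stood at 1.77 while the other 15 libraries ranked between 57.9 and 83.4. Without WT replicate 1 the difference at Dnmt1 was 3.81 points. The Tdg promoter had the next lowest p, and it ranked at 98.4, 98.2, 98.3 and 97.6 in WT and 96.8, 97.4, 97.6 and 97.6 in TET2KO. There the lowest WT library, at 97.64, lay just above the highest TET2KO library, at 97.60, with a difference of -0.77 points (adjusted p = 0.58 in limma). The share of all regions whose WT and TET2KO libraries part in this way was not counted.

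On the p300-deficient background, after the Dnmt3b upstream region, the lowest p values were those of 2 Dnmt3a promoter regions. The downstream one (chr12:3890959-3893245), at a start 86095 bp inside the gene, was 2.47 points higher in P300KO_TET2KO than in P300KO. The upstream one was -1.67 points different. Neither of these 2, among the 5 promoter regions at Dnmt3a, passed (limma, adjusted p = 0.74 and 0.77). Ranked by fold enrichment, the downstream one differed by -0.41 points and the upstream one by -6.74. The difference between the 2 Tet2 effects had its lowest p at a second Tet3 promoter region (chr6:83455205-83457393). There the effect of Tet2 loss was 4.10 points higher on the p300-deficient background (SE 1.91, limma, adjusted p = 0.93).

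**Figure D3:**
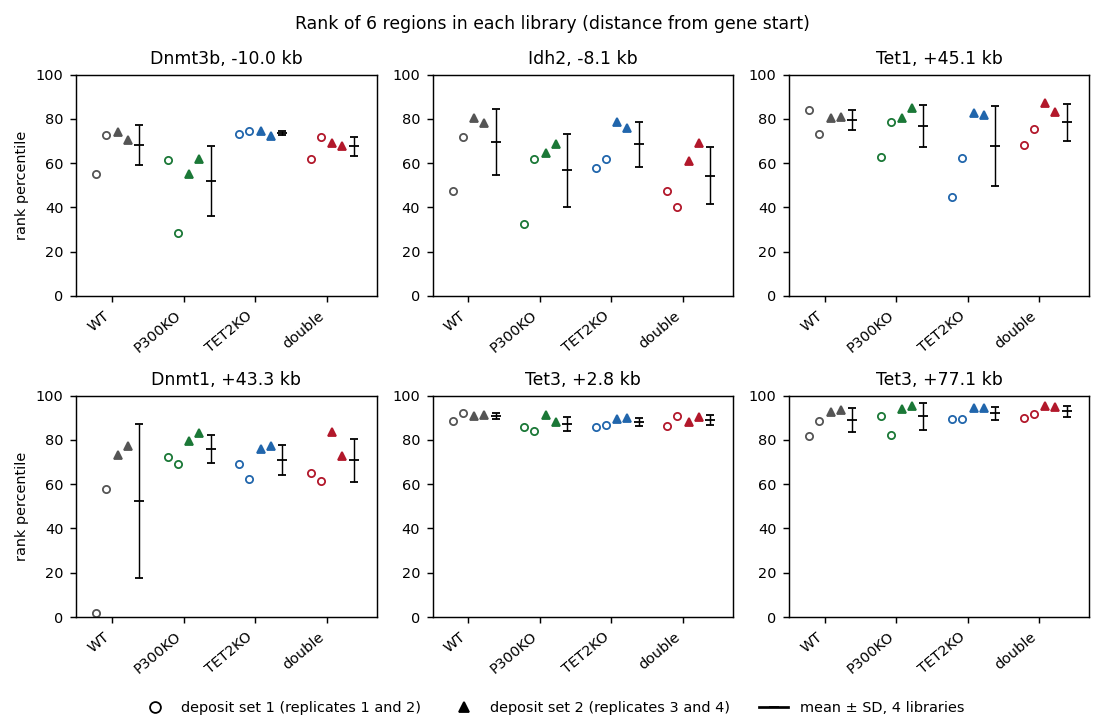
Rank percentile of 6 regions with low p in the contrasts (vertical axis, 0 to 100) in every library by genotype, where "double" is P300KO_TET2KO and titles give the gene and the distance from its start; circles are replicates 1 and 2, triangles replicates 3 and 4, and bars the mean ± SD of 4 libraries. At Idh2 the p300-deficient triangles sit between 61.0 and 69.0, under the others at 75.9 to 80.5, and at Dnmt1 a single WT circle sits at 1.77.

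A count of open regions was also made for each locus in each library. The Tet3 locus had 9, 11, 16 and 18 regions with a peak in WT, and 15, 13, 17 and 17 in TET2KO. It had 16, 16, 18 and 18 in P300KO, and 18, 13, 18 and 17 in P300KO_TET2KO. The 2 lowest counts were those of WT replicates 1 and 2. The Tet1 locus had 7, 17, 15 and 15 in WT, and 6, 8, 17 and 14 in TET2KO, which overlapped. At Tet1, P300KO had 11, 11, 20 and 14 and P300KO_TET2KO 11, 9, 16 and 15.

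The Tet2 locus itself had 7, 6, 7 and 8 regions in WT and 4, 4, 9 and 8 in TET2KO. It had 7, 8, 7 and 8 in P300KO, and 6, 4, 9 and 9 in P300KO_TET2KO. In both groups without Tet2 the first deposit set held fewer regions than the second, while with Tet2 the sets lay within 2 regions of each other. The pattern was not particular to this locus. Dnmt3b had 6, 4, 9 and 9 regions in TET2KO and 6, 6, 8 and 7 in P300KO_TET2KO. With Tet2 it had 8, 7, 7 and 7 in WT and 7, 8, 7 and 9 in P300KO. Mean counts over all 16 libraries were higher in the second set at 8 of the 10 loci, the exceptions being Idh1 and Idh2.

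Tet2 absent against present, with labels permuted within p300 background and deposit set, gave a mean difference of 0.75 regions at Tet3 (exact permutation p = 0.491, two-sided). Tet1 had 1.75 fewer regions, written -1.75 (exact permutation p = 0.352), and Tet2 differed by -0.625 (exact permutation p = 0.457). Dnmt1 differed by 1.25 regions, Dnmt3a by -0.375 and Dnmt3b by -0.625, with exact permutation p of 0.225, 0.733 and 0.435. Single libraries moved several of these means. With 1 left out, Tet1 ran from -3 (without WT replicate 1) to -0.5 (without WT replicate 2), Tet3 from 0.125 (without P300KO_TET2KO replicate 1) to 1.375 (without P300KO_TET2KO replicate 2), Dnmt1 from 0.5 (without WT replicate 1) to 2 (without WT replicate 2), and Dnmt3a from -0.75 (without WT replicate 1 or P300KO_TET2KO replicate 3) to 0 (without WT replicate 2 or P300KO_TET2KO replicate 4). Tet2 came to -0.375 without P300KO_TET2KO replicate 2, and Dnmt3b to -0.375 without P300KO replicate 4 or TET2KO replicate 2. The metabolic genes Idh1 and Idh2 differed by 0.125 and 0.625 regions (exact permutation p = 1 and 0.194). Idh1 came to 0 without replicate 1 of WT or P300KO or TET2KO replicate 2, and to 0.25 without replicate 2 of WT or P300KO or TET2KO replicate 1, while Idh2 came to 0.375 without TET2KO replicate 2. Tdg had the lowest p. It had 3 regions in each WT library, 3, 2, 3 and 2 in TET2KO, 3, 2, 4 and 4 in P300KO, and 2, 2, 3 and 3 in P300KO_TET2KO, a difference of -0.625 (exact permutation p = 0.0417). Uhrf1 came next, with 3, 2, 7 and 6 in WT and 2, 3, 4 and 4 in TET2KO, 5, 4, 4 and 7 in P300KO, and 2, 3, 5 and 5 in P300KO_TET2KO, a difference of -1.25 (exact permutation p = 0.0571). So 1 of 10 loci had an unadjusted p under 0.05, against 3.88% of the 19753 loci with a peak in any library, and 0 of 10 passed after adjustment over them all. At a −log10 q of at least 2, 3 of 10 were under 0.05, against 7.45% of loci. They were Tet2, where the sign turned to 1.5 more regions, Tet3 and Dnmt1, and no longer Tdg. At that cut WT replicates 1 and 2 kept 45.0% and 63.2% of their peaks, whose part in these counts was not tested. Without P300KO replicate 1 or without TET2KO replicate 4 the p at Tdg was 0.0741 (exact permutation). Within the single p300 backgrounds 0 of 10 loci were under 0.05, against 0.304% and 0.521% of loci. Those tests permuted labels across deposit sets, and within sets the smallest p that 36 arrangements allow is 0.0556.

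**Figure D4:**
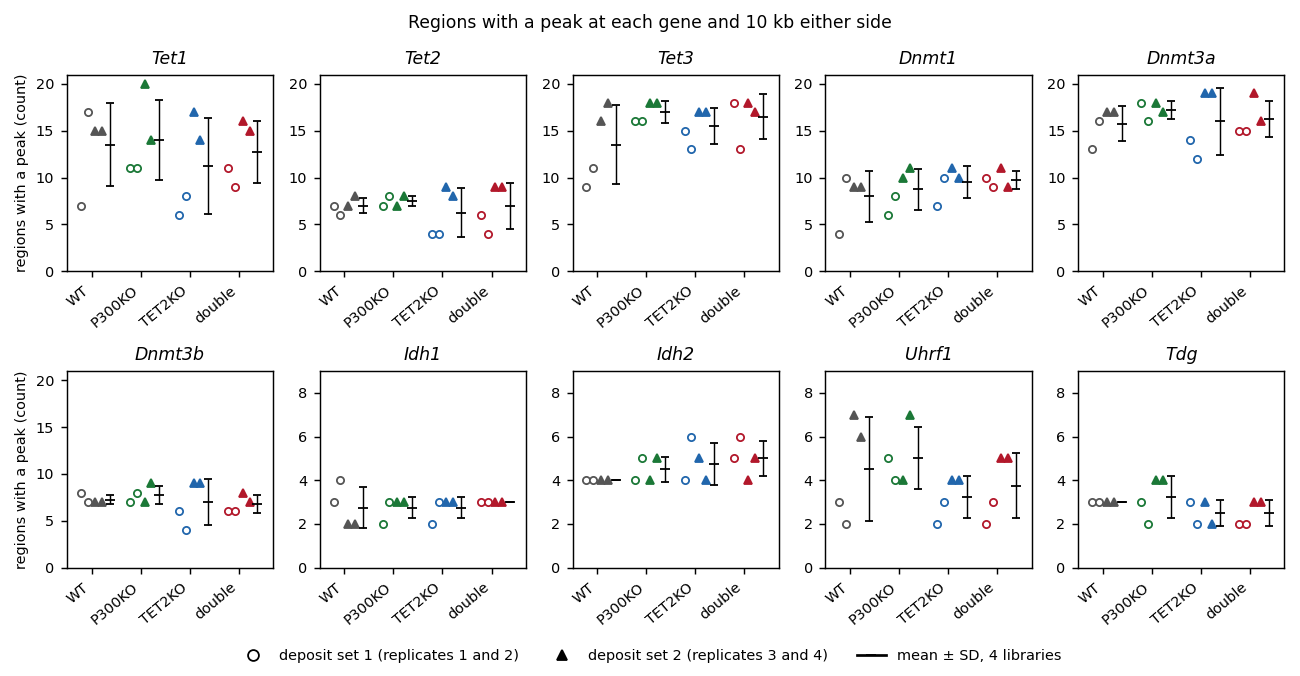
Number of merged regions with a peak at each gene and 10 kb either side (vertical axis, count; larger scale for the first 6 genes) in every library by genotype, where "double" is P300KO_TET2KO; circles are replicates 1 and 2, triangles replicates 3 and 4, and bars the mean ± SD of 4 libraries. The mean of the triangles is above that of the circles at 8 of the 10 genes. At Tet2 the TET2KO circles sit at 4 and 4 under triangles at 9 and 8, and at Dnmt3b at 6 and 4 under triangles at 9 and 9.

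Presence of single regions was compared by a rule that asked for a peak in 4 of 4 libraries on one side of a contrast and in 0 of 4 on the opposite side. No test of a single region can pass over so many regions, so the counts stand beside the share of all regions. Of the 242 regions, 0 met the rule in TET2KO against WT, beside 0.0213% of all regions, and 0 in P300KO_TET2KO against P300KO, beside 0.0959%. Over both backgrounds, at 6 of 8 or more against 2 of 8 or fewer, 0 of 242 met it, beside 0.272%. When 1 of the libraries was left out, 2 regions met the rule in P300KO_TET2KO against P300KO without P300KO_TET2KO replicate 2, beside 0.188% of all regions, and 1 without P300KO replicate 2, beside 0.219%.

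Loss of p300 gave the single region that met the presence rule. In P300KO against WT it was 1 of 242 regions, beside 0.0236% of all regions, and it lay in an intron of Dnmt3b (chr2:153651199-153651458), 1878 bp inside the gene start. Its sequence is the last one printed above. No WT library had a peak there. P300KO libraries ranked at 41.8, 21.6, 39.4 and 41.1, and P300KO_TET2KO libraries at 43.5, 36.5, 36.7 and 24.3. Of the TET2KO libraries, replicates 3 and 4 had it, at 38.04 and 35.03, and replicates 1 and 2 had none. The 10 summits fell between positions 153651294 and 153651322, with fold enrichments over local background of 2.202 to 3.26 as the authors' caller gave them. These ranks lie below the middle of each list. The region did not meet the rule among the strongest 50000 peaks of each list, nor did it meet it when a −log10 q of at least 2 was asked, since the peak of P300KO replicate 2 had a −log10 q of 1.56. In P300KO_TET2KO against TET2KO, 0 of 242 regions met the rule, beside 0.0726% of all regions.

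**Figure D5:**
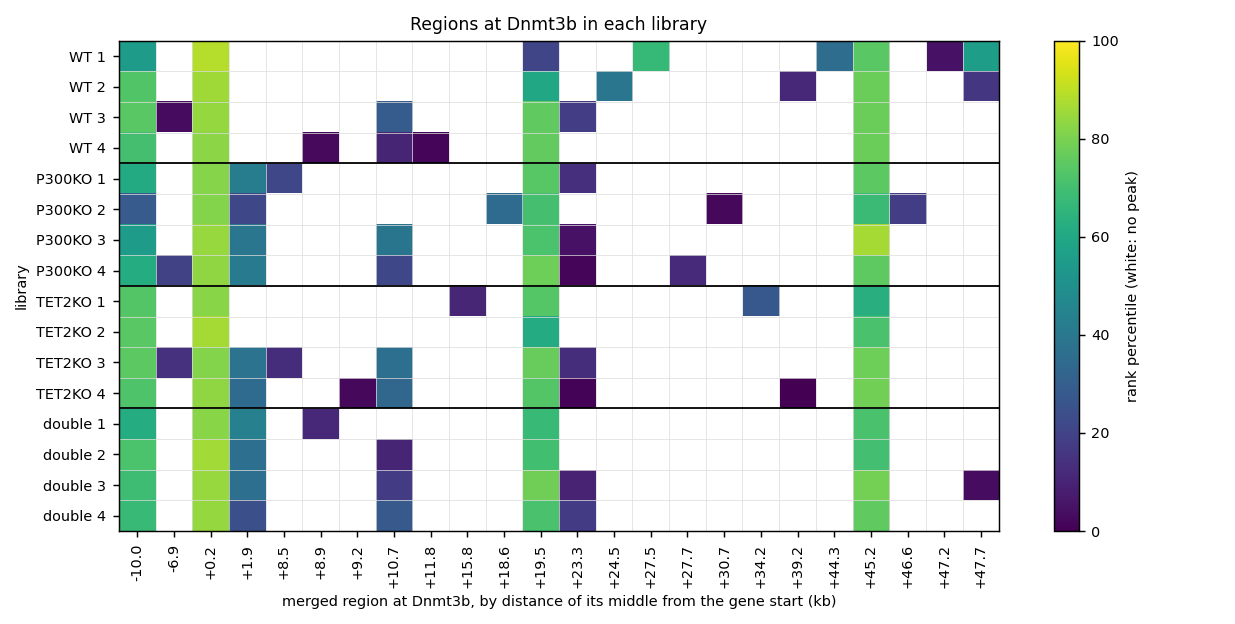
Rank percentile (colour, 0 to 100; white where no peak was called) of the 24 merged regions at Dnmt3b, ordered by the distance of their middle from the gene start in kb (horizontal axis, not to scale), in the 16 libraries (rows), where "double" is P300KO_TET2KO. The promoter at +0.2 kb and 3 further regions fill their columns, and the intron region at +1.9 kb is white in all 4 WT libraries and in TET2KO replicates 1 and 2.

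The rank fit gave 0 of 34 regions for P300KO against WT, beside 0.0102% of all regions, with 6 at an unadjusted p under 0.05, against 13.2%. For P300KO_TET2KO against TET2KO it gave 0 of 34, beside 0.0687%, with 3 under 0.05 unadjusted, against 5.57%. In P300KO against WT the 3 lowest p were those of the Dnmt3b upstream region, 16.4 points lower in P300KO (SE 5.99, limma, adjusted p = 0.27), the Dnmt1 intron region, 23.4 points higher, and the second Tet3 promoter region, with a difference of -3.35 points. Without WT replicate 1 the Dnmt1 value was 8.66 points, and without P300KO replicate 2 the Dnmt3b value was -9.01 points. That Tet3 promoter ranked at 88.6, 92.0, 90.9 and 91.3 in WT and at 85.9, 84.05, 91.3 and 88.2 in P300KO. TET2KO libraries ranked at it at 86.0, 86.9, 89.6 and 90.05 and P300KO_TET2KO libraries at 86.2, 90.9, 87.9 and 90.5. In P300KO_TET2KO against TET2KO the low p values were those of a region upstream of Idh2, at -14.1 points (limma, adjusted p = 0.83), of the Dnmt1 promoter, at -0.90 points, and of the Tet1 intron region, at 10.6 points, or 4.803 without TET2KO replicate 1.

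The Idh2 region lay 8117 bp upstream of the gene (chr7:80122962-80124057), between genes. It ranked at 47.6, 71.6, 80.5 and 78.0 in WT and at 57.8, 61.6, 78.5 and 75.9 in TET2KO. Without p300 it ranked at 32.4, 61.7, 64.7 and 68.4 in P300KO and at 47.6, 39.98, 61.0 and 69.0 in P300KO_TET2KO. In the second deposit set the p300-deficient libraries did not overlap with the others, and in the first they did. Its low value in both p300 contrasts led to a comparison of p300 absent with p300 present over both Tet2 backgrounds, which was added after these values were seen. Its value at this region is therefore a description and no test of it. The Idh2 upstream region differed there by -13.35 points, lower without p300, by -14.2 points within the first set and by -12.5 points within the second. The Idh2 promoter itself differed by 1.14 points in this comparison (limma, adjusted p = 0.36), or by 0.59 without WT replicate 1.

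In the same added comparison 0 of the 34 regions passed, beside 0.661% of all regions. Within the second set 4 of the 34 did, beside 6.57% of all regions, and all 4 were lower without p300, as were 64.2% of the regions called there: Idh2 upstream, Dnmt3b upstream at -9.39 points, and 2 Dnmt3a intron regions (chr12:3855653-3856571 and chr12:3870820-3871590). Idh2 upstream and Dnmt3b upstream had been seen low in the single p300 contrasts, so their calls are not independent of them. At the first Dnmt3a intron region WT libraries ranked at 91.0, 92.9, 97.5 and 97.3 and P300KO libraries at 95.5, 92.9, 94.3 and 96.1. By presence, 2 of 242 regions were gained without p300, beside 0.277% of all regions in either direction. They were the Dnmt3b intron region and a Tet3 intron region (chr6:83408501-83409062), which was found in 1 of 4 WT, 3 of 4 P300KO, 1 of 4 TET2KO and 4 of 4 P300KO_TET2KO libraries. Of these calls 0 were left at 7 of 8 against 1 of 8, 0 without WT replicate 1, 2 or 3 or TET2KO replicate 1 or 2, and 1 without WT replicate 4 or TET2KO replicate 3. When 1 library with p300 was left out, the rule allowed 1 peak among the other 7 rather than 2 among 8. Both calls stayed with any 1 of the p300-deficient libraries left out, beside 0.0939% to 0.196% of all regions. At a −log10 q of at least 2, 2 regions were gained, beside 0.312%. The Tet3 locus had 2.25 more regions without p300 (exact permutation p = 0.0694), and 2.25 more also when a −log10 q of at least 2 was asked (exact permutation p = 0.00154, the smallest that the 1296 arrangements allow). At that setting 2 of 10 loci were under 0.05, against 7.23% of loci, and WT replicates 1 and 2 kept 45.0% and 63.2% of their peaks, whose part in the result was not tested. In the main count 0 of 10 loci were under 0.05, against 4.56% of loci, and within the single Tet2 backgrounds 0 of 10 were, against 0.309% of loci in P300KO against WT and 0.385% in P300KO_TET2KO against TET2KO.

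The wider pathway was given by counts, from 38 further genes, among them the methyl-CpG binding proteins, the Gadd45 and base excision repair genes, and the enzymes of methyl donor supply. Their loci held 446 regions, of which 93 were found in all libraries. In every contrast 0 of the 93 passed in limma. At an unadjusted p under 0.05, 2 were higher and 6 lower in TET2KO against WT, 9 higher and 3 lower in P300KO_TET2KO against P300KO, and 6 higher and 4 lower over both backgrounds. These are 8.60%, 12.9% and 10.8% of the 93, beside 8.75%, 7.04% and 10.7% of all regions. With p300 lost, 6 were higher and 9 lower in P300KO against WT, or 16.1% beside 13.2%, and 1 higher and 2 lower in P300KO_TET2KO against TET2KO, or 3.23% beside 5.57%. By presence, 1 of the 446 was called over both backgrounds for Tet2, beside 0.272% of all regions in either direction. This region, at Zbtb38, which encodes a protein that binds methylated DNA, was lost without Tet2 (chr9:96701945-96702328). It was found in 4 of 4 WT, 2 of 4 P300KO, 1 of 4 TET2KO and 0 of 4 P300KO_TET2KO libraries.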

How the data were processed

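The files were 16 peak lists, 1 for each ATAC-seq library of sorted HSPCs. The authors trimmed reads with cutadapt 1.9.1, aligned them to mm10 with Bowtie2 2.2.6, removed duplicates, shifted reads for the transposase offset and called peaks in each library with MACS2 2.1.0 (names and versions from the submitters' processing notes). The deposited lists give the fold enrichment of each peak, a ratio to local background made by the authors, and the authors' −log10 p and −log10 q within 1 library. They move with depth, which the lists do not hold, so libraries were compared by the order of values within a list. The values themselves entered only an alternative that dropped each peak whose −log10 q was under 2 and the description of single peaks. Peaks sharing 1 bp were merged across libraries, and each region took the highest −log10 p of a library as a percentile of that list. Genes and positions came from GENCODE M21 and promoter sequences from RefSeq, both on the mm10 assembly.

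Ranks of regions found in all 16 libraries were fitted with limma 3.58.1 in R 4.3.3, with genotype and deposit set as terms, an abundance trend and Benjamini-Hochberg adjustment over 39310 regions at 0.05. Those regions were required in every genotype, so regions that appear or vanish are seen only by the presence rule. Counts per locus were compared by two-sided exact permutation tests, over 70 arrangements in single contrasts (smallest p 0.0286) and 1296 within p300 background and deposit set. Scripts ran in Python 3.11.15 and were tested on simulated data.

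Members, gene lists, tests and first alternatives were chosen with earlier results of these data known. Regions are named by a rule: the promoter of each gene, the 3 regions of lowest p in each contrast, and each region called by presence. The 2 Dnmt3a intron regions of the second set, the second Tet2 region, the Tet3 intron region of the added comparison and the Zbtb38 region fall outside it or the first contrasts and were named after their values were seen. p300 absent against present was added after the data were seen. Replicate numbers did not pair the libraries. Deviations from genotype means correlated at 0.135 to 0.565 between libraries of the same number and at 0.191 to 0.561 between other libraries of the same set, and at -0.125 to 0.042 for the same number once set means were removed. The p-values measure the spread between these libraries.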

Additional observations from a re-analysis of the deposited data

Results flagged for a closer look

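Libraries were compared within genotypes in 105 groups of 4 values that varied. Of these, 9 had a lone library farther from the rest than Dixon's 95% limit for the gap over the group's range. On continuous values chance passes that limit in about 1 in 20 groups. Counts with 3 equal values always pass it, as at Dnmt3b in WT and at Idh1 in P300KO and TET2KO. The 9 can therefore not be set against that rate. Among the 9, 8 were replicate 1 of a genotype. WT replicate 1 was lowest in regions at Dnmt1, with 4, and highest in regions at Dnmt3b, with 8, against 7 in each of the other WT libraries. It was also lowest at the Idh2 promoter, at 93.4, and at the Tet2 promoter, at 89.0. P300KO replicate 1 had 2 regions at Idh1, as had TET2KO replicate 1, against 3 in each other library of those genotypes. P300KO replicate 1 was highest at the Idh2 promoter, at 98.96, and lowest at the Uhrf1 promoter, at 97.2. TET2KO replicate 3 was highest at the Tet2 promoter, at 92.9. The difference between the Tet2 effects on both p300 backgrounds passed for 0 of the 34 regions in limma, with 1 at an unadjusted p under 0.05, against 4.59% of all regions.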

How the results depend on the processing

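Calls by rank among the 34 regions stayed at 0 in the 3 Tet2 contrasts, their difference and P300KO_TET2KO against TET2KO under every alternative run and with each library left out. P300KO against WT had 1 call in deposit set 2 alone, a Dnmt3a intron region, beside 1.52% of all regions. The added p300 comparison had 1 with normal scores and 4 in set 2 alone, beside 2.99% and 6.57%, and 0 to 1 with a library left out, 1 without WT replicate 1, beside 1.43%. With the replicate block in place of the deposit set, calls at the 34 regions stayed at 0 in every contrast, the calls over all regions were 82 for Tet2 absent against present and 31 for P300KO_TET2KO against P300KO, and P300KO against WT had 1 in place of 4 and the added p300 comparison 148 in place of 260. The cause of these moves was not tested. The count over all regions ranged from 3 to 446 for Tet2 absent against present, where 97 were called, from 0 to 269 against 41 for P300KO_TET2KO against P300KO, from 0 to 598 against 4 for P300KO against WT, from 0 to 557 against 27 for P300KO_TET2KO against TET2KO, from 0 to 7 against 0 for TET2KO against WT, and from 0 to 2584 against 260 for the added comparison. The highest of these counts came with set 2 alone or with normal scores in each contrast.

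Presence at 3 of 4 against 1 of 4 gave 4 regions in P300KO_TET2KO against P300KO, 6 in P300KO against WT, 2 in P300KO_TET2KO against TET2KO and 0 in TET2KO against WT, beside 1.69%, 1.34%, 1.71% and 1.20% of all regions. Among the strongest 50000 peaks, 1 region, at Tet1, of 67 was called over both backgrounds for Tet2, beside 0.853% of all regions, 0 in P300KO against WT and 1 of 67, at Tet2, in the added comparison, beside 1.11%. A −log10 q of at least 2 gave 0 in P300KO against WT. At 7 of 8 against 1 of 8 the added comparison gave 0. With a library left out the counts ran from 0 to 2 in P300KO_TET2KO against P300KO, beside 0.132% to 0.219% of all regions, 1 to 2 in P300KO against WT (2 without WT replicate 2, beside 0.0912% of all regions, and 1 otherwise, beside 0.0483% to 0.140%), 0 to 1 in P300KO_TET2KO against TET2KO (1 without TET2KO replicate 4, beside 0.156%) and 0 to 2 in the added comparison, beside 0.0939% to 0.196%, where leaving out any WT or TET2KO library but TET2KO replicate 4 lowered it and 7 libraries allow 1 peak rather than 2.

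Loci with an unadjusted exact permutation p under 0.05 for Tet2 absent against present numbered 1, at Tdg. There were 0 among the strongest 50000 peaks, beside 2.68% of loci, 0 with labels not permuted within sets, beside 1.46%, 0 under the replicate block, beside 2.33% (p = 0.0625 at Tdg, exact permutation), and 0 to 2 with a library left out, beside 3.59% to 5.51%. The count was 2 without WT replicate 2 (5.51% of loci) or P300KO replicate 3 (4.78%), and 0 without P300KO replicate 1 (5.33%) or TET2KO replicate 4 (4.63%). A −log10 q of at least 2 gave 3, at Tet2 with 1.5 more regions, Tet3 with 1.5 and Dnmt1 with 1.375 (exact permutation p = 0.00617, 0.0278 and 0.0293), against 7.45% of loci at that setting, and lost Tdg. For Tet2 this reversed the sign. WT replicates 1 and 2 kept 45.0% and 63.2% of their peaks at that cut, whose part in these counts was not tested. The added comparison had 2 among the strongest 50000, 2 at that q and 1 with 2 kb either side, against 3.51%, 7.23% and 3.86% of loci, and 0 to 1 with a library left out, beside 4.03% to 6.13%. Single deposit sets, and left-out libraries in single contrasts, cannot reach 0.05, since the smallest p is 0.0556 or more.

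Differences in regions per locus for Tet2 absent against present changed sign at −log10 q of at least 2 for Dnmt3a (1.375) and Dnmt3b (0.5), among the strongest 50000 for Dnmt3b (0.25), in set 2 alone for Tet2 (1.25), Tet3 (-0.25), Dnmt3a (1) and Dnmt3b (0.75), and in set 1 alone for Idh1 (-0.25). Rank differences, none of them called, changed sign ranked by fold enrichment at the promoters of Dnmt1 (-0.55), Idh1 (-2.72), Idh2 (-0.64), Tet1 (-2.87) and Uhrf1 (-1.78), at Tdg in TET2KO against WT (0.81) and at the downstream Dnmt3a promoter on the p300-deficient background (-0.41). They did so in set 2 alone at Dnmt1 (-0.15), Idh2 (-0.22), Tet1 (-0.99), Uhrf1 (-0.22), Tdg (0.039) and the Tet1 intron region (1.53), at −log10 q of at least 2 at Dnmt3a (0.23), Dnmt3b (2.64) and Tet2 (1.61), and as normal scores at Dnmt1 (-0.069), Tet1 (-0.00416) and Uhrf1 (-0.00632). With a library left out, promoters ran from -0.067 to 0.28 at Dnmt1, -0.72 to 0.29 at Dnmt3b, -0.36 to 0.42 at Idh2, -1.73 to 1.47 at Tet1 and -0.043 to 0.40 at Uhrf1. Without a change of sign they ran from 0.12 (without P300KO replicate 2) to 0.67 at Idh1, 0.63 (without WT replicate 1) to 1.35 at Tet3, -1.97 to -0.86 (without TET2KO replicate 1) at Dnmt3a, -0.51 to -0.25 (without P300KO_TET2KO replicate 1) at Tdg and -0.85 (without WT replicate 1) to -0.17 (without P300KO replicate 2) at Tet2. Values near 0 are thus not stable in sign, and the unknown depth of each peak limits what a missing peak shows.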
